A study of Mus musculus with 16 samples.

Results

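Cells grown from the coronal suture of wild-type C57BL6 mice were treated with thyroxine, and their RNA was compared with that of untreated cells on 8 of the 16 arrays of the series. The 8 arrays were those titled as wild type, 4 treated and 4 control. Each treated array was set against the control array of the same culture and day, which gave 4 pairs: female and male cells at 3 days, and female and male cells at 7 days. The other 8 arrays held cells of Twist1+/- mice, handled in the same way. They entered the mean levels by which genes were chosen for testing, the estimate of the spread and the closing comparison. The coronal suture joins the frontal bone to the parietal bones of the skull by fibrous tissue, and it holds the mesenchymal cells from which the skull bones grow.

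The cells came from 2 litters in which wild-type and Twist1+/- animals were mixed, and cells of each sex and genotype were grown separately, so that wild-type cells of each sex were 1 culture. The sources used here do not say how many animals went into a culture. Control wells received DMEM-based proliferation medium, and the culture medium contained 10% serum in all groups. Treated wells received thyroxine at a concentration, in mol per liter, of -6 on the log10 scale. There were 3 wells of each medium per culture and time, seeded with 65000 cells each, and 100 ng of total RNA went onto an array. They do not say either if those wells were combined for the array. With 1 culture per sex, p-values reflect how much the pair differences vary, which may be technical in part, and not the spread between animals. The number of arrays limits the precision.

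Thyroxine, the chief secretion of the thyroid gland, is largely a prohormone. Deiodinase enzymes, encoded by Dio1 and Dio2, convert it to triiodothyronine, and the enzyme encoded by Dio3 inactivates both. Triiodothyronine binds nuclear receptors, encoded by Thra and Thrb, which sit on DNA and change the transcription of target genes such as Klf9 and Hr. In the growing skull, an excess of thyroid hormone is known to go with early closure of the sutures.

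Values were log2 expression levels per gene, so a difference of 1 is a 2-fold difference. Of 22180 genes, 13451 had a mean level of at least 3.905 and were tested with limma, with Benjamini-Hochberg adjustment over all of them and a threshold of 0.05. Xist, a noncoding RNA of X inactivation, lay between 5.84 and 7.45 on the female wild-type arrays and between 2.93 and 3.57 on the male ones, so sex matched the labels. Mesenchymal genes were high on all 8 arrays, with Prrx1 between 9.91 and 10.59 and Col1a1 between 11.75 and 12.79. The osteoblast genes Sp7 (3.47 to 4.15), Bglap (2.77 to 3.52) and Ibsp (2.27 to 2.90) averaged under 3.905 and were not tested. A further 12 osteoblast genes were tested and averaged 7.83 in female and 7.32 in male cells on the 3-day control arrays. Macrophage genes were also high: Lyz2, which encodes lysozyme, lay between 11.46 and 13.07, and Csf1r, the receptor of the macrophage growth factor, between 8.81 and 10.46. Twist1 lay between 6.07 and 7.70 on the wild-type arrays and between 6.51 and 7.55 on the Twist1+/- arrays, so its level did not separate the genotypes.

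The male culture stood apart from the female culture in several gene groups. The 36 extracellular matrix genes tested averaged 9.90 in female and 8.71 in male cells on the 3-day control arrays, and 9.75 and 8.75 on those of 7 days. The 27 interferon-induced genes averaged 7.28 and 5.95 at 3 days and 7.33 and 6.48 at 7 days. For the 28 macrophage genes the cultures differed at 3 days, with 7.34 in female and 8.55 in male cells, and were close at 7 days, with 8.83 and 8.98 without and 8.72 and 8.55 with thyroxine. Results that rest on the male culture, or on its 7-day pair, are therefore given with and without it. The effect of thyroxine was the mean of the 3-day and 7-day effects unless a day is named. Differences are treated minus control, and the 4 values of a gene are listed for female and male cells at 3 days and then for female and male cells at 7 days.

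Thyroxine raised Htra1 and lowered Il6 in wild-type suture cells, and these 2 genes were all that passed the test, or 0.0149% of the genes tested. Htra1 encodes a secreted serine protease that cleaves matrix proteins and binds growth factors of the TGF-beta family. Il6 encodes interleukin 6, an inflammatory cytokine that also acts on bone cells. Klf9, a transcription factor gene that thyroid hormone receptors induce directly, and Npr3, whose receptor clears natriuretic peptides, came next without passing. Genes of inflammation, of the interferon response and of macrophages were lower in most of their members, by small amounts. The median difference of each group was largest in the male cells at 7 days, and no member except Il6 passed.

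Htra1 was measured at 8.23 without and 8.91 with thyroxine in female cells at 3 days, and at 7.82 and 8.19 in male cells. At 7 days it was measured at 7.75 and 8.67 in female cells and at 7.70 and 8.39 in male cells. Each treated array was above its own control, although the treated male array at 3 days lay below the female control array of that day, so the 4 treated and 4 control levels overlapped. The mean went from 7.88 ± 0.24 (SD, n = 4 arrays) to 8.54 ± 0.32. Htra1 rose 1.59-fold, or by 0.67 ± 0.09 on the log2 scale (SE, n = 4 pairs), with an adjusted p of 0.0436 from limma.

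Il6 was measured at 6.30 without and 5.77 with thyroxine in female cells at 3 days, and at 6.95 and 6.15 in male cells. At 7 days the levels were 6.32 and 5.74 in female cells and 7.05 and 5.99 in male cells. The lowest control array lay above the highest treated array, so the groups did not overlap, which held for 1.20% of all genes tested in either direction. Without thyroxine the male cells had more Il6 RNA than the female cells at both days, and with thyroxine the 4 arrays lay within a narrower range, from 5.74 to 6.15. Il6 fell by 0.74 ± 0.10 (SE, n = 4 pairs, adjusted p = 0.0436), or 1.67-fold, with a mean of 6.66 ± 0.40 (SD, n = 4 arrays) without and 5.91 ± 0.19 with the hormone.

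Both calls depended on the settings. Over 17 alternatives the effect of Htra1 ran from 0.53 to 0.80 and its adjusted p from 0.0168 to 0.927, and the effect of Il6 ran from -0.93 to -0.56 and its adjusted p from 0.0168 to 0.997. Each passed in 6 of the 17. Without the male culture, Htra1 was higher by 0.80 and Il6 lower by 0.56 in female cells, and neither passed.

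The promoters of the 2 genes are shown because they are the genes that passed. RefSeq's table for GRCm38.p6 gave the 250 bases before the start site of Htra1 on the plus strand at chr7:130935953-130936202 and of Il6 on the plus strand at chr5:30012864-30013113. Capitals mark matches to GGG, any 5 bases and CC, the general form of the site bound by NF-kB, a transcription factor of the inflammatory response, searched on both strands.
Htra1: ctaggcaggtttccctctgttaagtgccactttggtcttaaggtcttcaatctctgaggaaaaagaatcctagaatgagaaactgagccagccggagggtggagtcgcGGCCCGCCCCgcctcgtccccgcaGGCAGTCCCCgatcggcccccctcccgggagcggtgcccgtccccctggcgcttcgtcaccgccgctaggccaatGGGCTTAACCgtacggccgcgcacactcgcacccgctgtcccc
Il6: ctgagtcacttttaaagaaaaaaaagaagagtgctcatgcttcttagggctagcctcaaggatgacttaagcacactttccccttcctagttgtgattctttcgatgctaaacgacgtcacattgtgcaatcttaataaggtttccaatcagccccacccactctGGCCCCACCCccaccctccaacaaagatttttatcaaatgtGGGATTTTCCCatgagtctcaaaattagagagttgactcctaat
The Il6 window held 3 matches that start 85, 44 and 43 bases before the start site, the last pair overlapping. The Htra1 window held 3 as well, at 142, 118 and 43 bases before the start. The motif is loose: over the 300 bases of the table's entries, 250 before and 50 after the start, it was in 71.1% of the 10552 tested genes that have an entry. The paired thyroid hormone element, AGGTCA repeated in the same direction after any 4 bases, on both strands, was in the window of 0 of these 10552 genes and of 4 of the 27025 genes of the table, and the single element AGGTCA was in 14.6% of the tested genes. These are matches of letters, not sites.

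**Figure D1:**
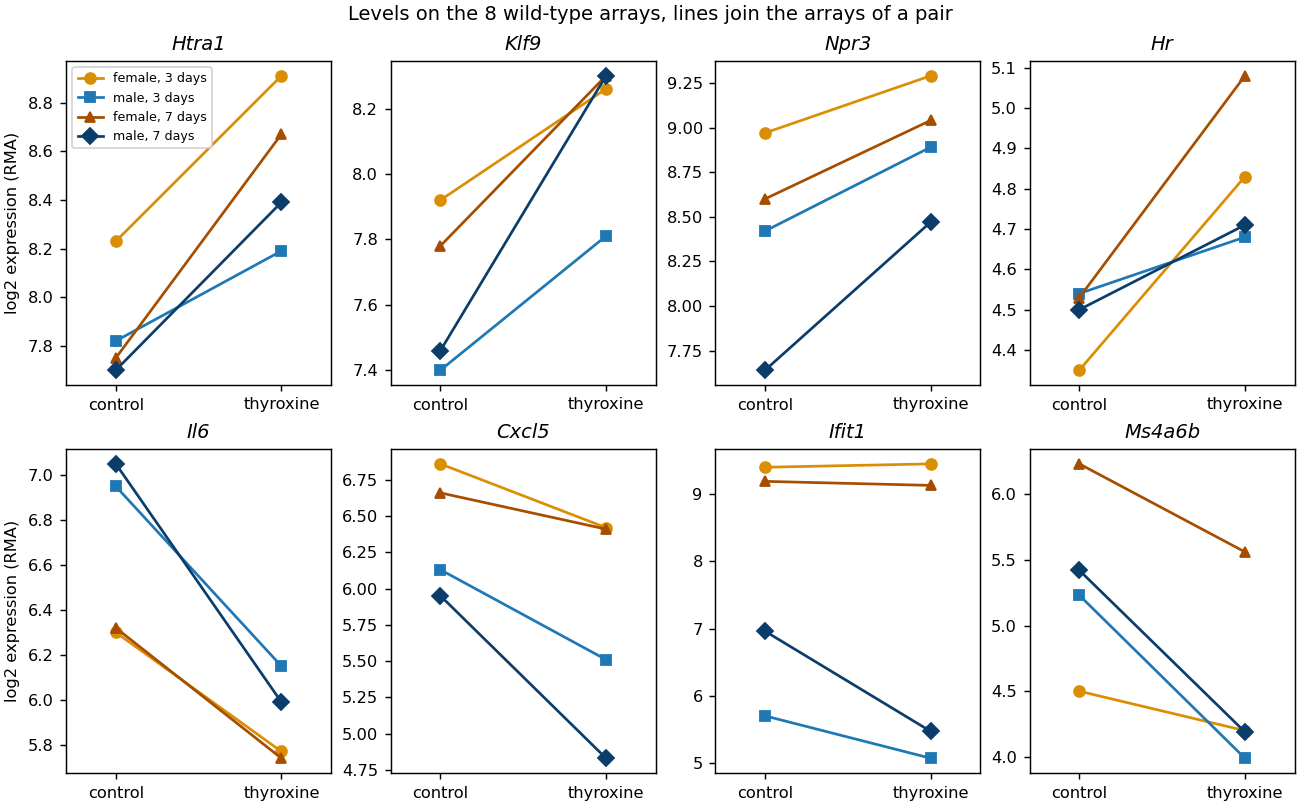
Log2 expression level (RMA) of 8 genes on the 8 wild-type arrays, control on the left and thyroxine on the right of each panel; a line joins the 2 arrays of a pair, colours and symbols mark the culture and day, and each panel has its own scale. Htra1, Klf9, Npr3 and Hr go up in 4 of 4 pairs and Il6, Cxcl5 and Ms4a6b go down in 4 of 4, while Ifit1 is nearly level in the female cells (9.40 to 9.45 at 3 days) and goes down in the male cells (6.96 to 5.47 at 7 days).

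The 12 genes named on the higher side began with Htra1. Besides it, Klf9 and Npr3, they were Mxra7, Heg1, Aqp1, Klf10, Itgbl1, Ret, Afap1l2, Xkr6 and Stmn2. Each was higher in 4 of 4 pairs, which was a condition for being named and held for 6.51% of all genes tested. Klf9 went from 7.92 to 8.26, from 7.40 to 7.81, from 7.78 to 8.30 and from 7.46 to 8.30, a difference of 0.53 ± 0.08 (SE, n = 4 pairs, adjusted p = 0.105). The gain was larger at 7 days than at 3 days in both cultures (0.34 and 0.41, then 0.52 and 0.84). With weights for the quality of each array, Klf9 and Npr3 passed as well (adjusted p = 0.0416 for both), and under the 16 other alternatives neither did. The adjusted p of Klf9 over the 17 alternatives ran from 0.0416 to 0.997.

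Npr3 removes natriuretic peptides, hormones that promote the growth of skeletal elements. It went from 8.97 to 9.29, from 8.42 to 8.89, from 8.60 to 9.04 and from 7.64 to 8.47, a difference of 0.52 ± 0.08. Its level was lowest in male cells at 7 days without thyroxine, and the gain there, 0.83, was the largest of the 4. Mxra7, named for matrix remodelling, was higher by 0.45 ± 0.08 (adjusted p = 0.190), with 0.25 and 0.22 at 3 days and 0.56 and 0.78 at 7 days. Heg1, which encodes a transmembrane receptor of endothelial junctions, was higher by 0.46 ± 0.09 (adjusted p = 0.203), but by only 0.05 in male cells at 3 days, and by 0.25 over both days with the mean of its 2 probe sets. The water channel gene Aqp1 was higher by 0.56 ± 0.10, from 0.22 in female cells at 3 days to 0.88 in male cells at 7 days.

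Klf10, a transcription factor gene induced by TGF-beta, was higher by 0.44 ± 0.08 (adjusted p = 0.228) with pair differences of 0.29, 0.47, 0.55 and 0.45. Its control levels were 6.70 and 6.68 in female cells and 7.25 and 7.12 in male cells. At 3 days the cultures differed by more than the hormone moved either of them, and at 7 days the gap was of the size of the pair differences. Ret, the receptor tyrosine kinase of GDNF-type ligands, had the most even differences of the group, 0.51, 0.53, 0.44 and 0.60 (mean 0.52 ± 0.11, adjusted p = 0.319). For Afap1l2, an adaptor of actin filaments, and Xkr6, of the family of XK-related membrane proteins, the treated and control levels did not overlap, as for 0.699% of all genes on the higher side. Afap1l2 lay between 4.68 and 5.27 without and between 5.38 and 5.87 with thyroxine. Xkr6 lay between 4.34 and 4.67 without and between 4.92 and 5.34 with it. Their differences were 0.69 ± 0.15 and 0.68 ± 0.15 (adjusted p = 0.347 for both), and that of Xkr6 was 0.43 with the mean of its 2 probe sets. Itgbl1, a secreted protein with integrin-like repeats (0.55 ± 0.11), and Stmn2, a regulator of microtubules best known from neurons (0.56 ± 0.12), had their largest difference in male cells at 7 days, 0.94 and 0.81.

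On the lower side, Il6 was followed by Rtl3, Cxcl5, Ms4a6b, Oser1, Cd200r4, Car6, H2-T23, Ndrg1, Rab6b, Scarna6 and Fam136a. Each was lower in 4 of 4 pairs, again a condition for being named, which held for 6.33% of all genes tested. Cxcl5, a chemokine that attracts neutrophils, went from 6.86 to 6.42, from 6.13 to 5.51, from 6.66 to 6.41 and from 5.95 to 4.83. The female cells had more Cxcl5 RNA than the male cells at each day, the reverse of Il6. Its difference of -0.61 ± 0.12 (SE, n = 4 pairs) did not pass (adjusted p = 0.238), and the pair differences were -0.44 and -0.25 in female and -0.62 and -1.12 in male cells. Without the female pair at 7 days, Cxcl5 passed at -0.82 (adjusted p = 0.0205, range 0.0205 to 0.999 over 17 alternatives).

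Ms4a6b, a membrane protein gene of immune cells, had the largest mean difference of the 24 named genes, -0.86 ± 0.17 (adjusted p = 0.238). It went from 4.50 to 4.20 and from 6.23 to 5.56 in female cells at 3 and 7 days, and from 5.23 to 3.99 and from 5.42 to 4.19 in male cells. On 3 arrays of treated cells it was at or below 4.20, close to the lowest level that was tested. Cd200r4, of the CD200 receptor family of myeloid cells, was lower by 0.75 and 0.86 at 3 days and by 0.23 and 0.41 at 7 days. H2-T23, a nonclassical MHC class I gene, had even differences of -0.38, -0.40, -0.57 and -0.63.

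Oser1, a gene responsive to oxidative stress, was lower by 1.04 and 0.65 in female cells and by 0.45 and 0.27 in male cells, and its treated levels (5.48 to 6.29) lay below its control levels (6.36 to 6.74). Oser1 has 2 probe sets, and with their mean in place of the brighter the effect was -0.21 instead of -0.60. Non-overlapping levels on the lower side were found for 0.506% of all genes. Rab6b, a small GTPase of the Golgi, was another, with 4.98 to 5.54 without and 4.57 to 4.94 with thyroxine. Rtl3, a gene derived from a retrotransposon, differed more between the cultures than between the media: its control levels were 7.20 and 7.51 in female cells and 4.93 and 4.99 in male cells, and the pair differences were -0.33, -0.38, -0.67 and -1.01 in female and then male cells. The carbonic anhydrase gene Car6 (-0.51), the stress-responsive Ndrg1 (-0.37), the small Cajal body RNA Scarna6 (-0.50) and Fam136a (-0.52) completed the set, with adjusted p from 0.469 to 0.617.

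Of the 12 named genes on the higher side, 8 had their largest difference in male cells at 7 days, and of the 12 on the lower side 7 did. The median difference of the higher genes was 0.48 and 0.40 in female and male cells at 3 days and 0.56 and 0.76 at 7 days. For the lower genes the medians were -0.42, -0.62, -0.37 and -0.81. These medians describe genes that were chosen by the same differences. The pair differences had an SD over all genes of 0.229 and 0.240 in the female and 0.272 and 0.265 in the male culture, and 55 genes differed by more than 1 in the male pair at 7 days against 32 in the female pair of that day.

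**Figure D2:**
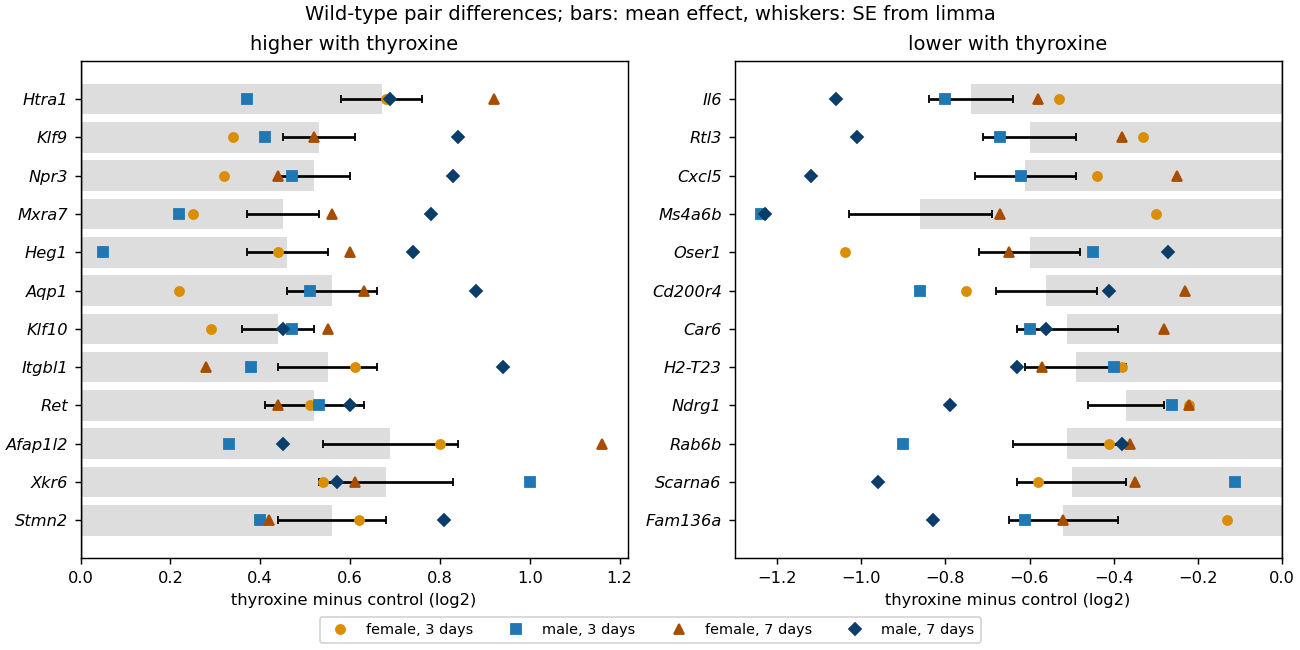
Thyroxine minus control (log2) for the 24 named genes, 12 higher on the left and 12 lower on the right; grey bars are the mean effect over the 4 pairs, whiskers its SE from limma, and symbols the 4 pairs. The genes were chosen by these differences; the male 7-day symbol is the farthest from 0 for 8 of the higher and 7 of the lower genes.

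The genes that handle the hormone showed no change that passed. Thra, a receptor gene, was at 6.18 and 6.01 without and with thyroxine in female cells at 3 days and at 5.17 and 5.50 in male cells, and its mean difference was 0.03 ± 0.11 (SE, n = 4 pairs). Thrb differed by 0.20 ± 0.15, with 3 pairs higher and the male pair at 3 days lower by 0.24. Dio2, the activating deiodinase, differed by 0.62 and 0.45 in male cells and by -0.06 and -0.03 in female cells, with levels between 4.20 and 4.86 on all 8 arrays. Dio3, the inactivating deiodinase, differed by 0.76 in female cells at 3 days and by -1.09 in male cells at 7 days, a mean of -0.02 ± 0.18. The amino acid transporter genes Slc7a5 (0.09) and Slc3a2 (-0.08), whose proteins together carry thyroid hormone, differed by less than 0.1. Over the 18 tested members of the list of transporters, deiodinases, receptors and coregulators, 13 were higher and 5 lower with a median of 0.02, against a median of 0.00 over all genes.

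Of 24 genes listed as responding to thyroid hormone in other tissues, 17 passed the filter on low levels, and 11 were higher and 6 lower with a median of 0.04. None passed, and without adjustment there were at p under 0.05 3 higher and 1 lower, where all genes gave 2.60% higher and 2.99% lower. The 3 were Klf9, Hr and Igfbp4. Hr, which encodes a corepressor named after the hairless mouse, went from 4.35 to 4.83, from 4.54 to 4.68, from 4.53 to 5.08 and from 4.50 to 4.71. Each treated array lay above each control array, yet the difference of 0.35 ± 0.13 did not pass (adjusted p = 0.842). Igfbp4, which binds insulin-like growth factors, was higher by 0.19 ± 0.07, with 0.22 and 0.32 in female cells and -0.01 and 0.21 in male cells. The lower member was Mmp13, the collagenase of hypertrophic cartilage and bone, at -0.33 ± 0.13. The adjusted p of Hr, Igfbp4 and Mmp13 lay between 0.841 and 0.842. Bcl3 (-0.23) was lower in male cells alone, by 0.41 and 0.62, while Pck1, which encodes an enzyme of gluconeogenesis, was higher by 0.61 in both cultures at 3 days and lower by 0.20 and 0.05 at 7 days. Without the male pair at 3 days the median of the list was 0.13.

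Inflammatory cytokine and chemokine genes were lower with thyroxine in 26 of 32 tested members, with a median of -0.12, while 49.3% of all genes were lower. Il6 was the member that passed. Without adjustment, 11 of the 32 were lower and 1 higher at p under 0.05, where all genes gave 2.99% and 2.60%. In 4 of 4 pairs 10 were lower, against 6.33% of all genes. These genes encode secreted proteins that call in and activate white blood cells. The list was chosen with earlier results of these arrays known, so its direction is not independent evidence. The chemokines of monocytes Ccl2 and Ccl7 were lower by 0.29 ± 0.08 and 0.30 ± 0.08 (SE, n = 4 pairs, adjusted p = 0.670 for both). Ccl2 went from 9.52 to 9.31, from 9.09 to 8.80, from 9.21 to 9.11 and from 9.75 to 9.20, a small shift on a gene with a high signal. Ccl8 differed by -0.42 and -0.69 at 3 days and by -0.01 and -0.45 at 7 days, and Ccl5 by -0.40, -0.10, -0.17 and -0.52.

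By pair, 23 and 21 of the 32 members were lower at 3 days in female and male cells, and 18 and 25 at 7 days, where all genes gave 50.4%, 50.6%, 49.3% and 45.8%. The medians were -0.10, -0.12, -0.02 and -0.29. Without the male culture 22 of the 32 were lower with a median of -0.12, and without the male pair at 7 days 22 were lower with a median of -0.07. Without the female pair at 7 days the median was -0.22.

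Interferon-induced genes, which encode antiviral proteins, were lower in 23 of 27 tested members with a median of -0.19, and 9 were lower at an unadjusted p under 0.05 and 0 higher. All genes gave 49.3% lower, and 2.99% lower and 2.60% higher at that p. None passed the adjusted test. As with the inflammatory list, earlier results of these arrays were known when this list was chosen, so its direction is not independent evidence. Several members had larger differences in the male culture. Over both days together the group was evenly split: 14 of the 27 were lower in the male than in the female response and 13 higher. At 7 days alone the group median was -0.08 in female and -0.39 in male cells. Ifit1, a binder of viral RNA and among the most strongly induced genes of the response, was at 9.40 and 9.45 without and with thyroxine in female cells at 3 days, and at 9.19 and 9.13 at 7 days. In male cells it started lower and went from 5.70 to 5.07 at 3 days and from 6.96 to 5.47 at 7 days. Its mean difference of -0.53 ± 0.17 (adjusted p = 0.841) lay almost wholly in the male culture, and it ran from -1.06 to -0.01 over the alternatives. Usp18, which removes the modifier ISG15, followed the same course: 8.19 to 8.25 and 8.05 to 7.75 in female cells, and 5.65 to 5.30 and 6.57 to 5.42 in male cells. Zbp1, a sensor of nucleic acids, went from 7.56 to 7.50, from 5.93 to 5.64, from 7.30 to 7.12 and from 6.89 to 5.64. The means were -0.43 ± 0.12 for Usp18 and -0.44 ± 0.14 for Zbp1, and Rtp4 (-0.34), Oasl2 (-0.32) and Irf9 (-0.32) were the other members with the smallest p. Oasl2 differed by -0.12, -0.07, -0.14 and -0.95.

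Of the 27, 20 and 19 members were lower in female cells at 3 and 7 days, and 14 and 26 in male cells. The medians were -0.10 and -0.08 in female cells and -0.07 and -0.39 in male cells. Without the male culture 21 of the 27 were lower (median -0.12), and without its 7-day pair alone 22 were lower (median -0.13). Without the female pair at 7 days, Ifit1 passed at -0.89 (adjusted p = 0.0389).

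The promoter of Ifit1 is shown because an element of such genes, the interferon-stimulated response element, can be read from its letters. RefSeq's table for GRCm38.p6 gave the 250 bases before the start on the plus strand at chr19:34640639-34640888. Capitals mark matches to GAAA, any 2 bases and GAAA, searched on both strands, here read from the other strand.
Ifit1: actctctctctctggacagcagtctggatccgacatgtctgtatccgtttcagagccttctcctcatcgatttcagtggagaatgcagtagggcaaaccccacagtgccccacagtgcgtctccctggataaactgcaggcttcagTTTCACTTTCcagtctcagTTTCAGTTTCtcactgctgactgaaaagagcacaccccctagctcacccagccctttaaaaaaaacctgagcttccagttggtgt
The 2 matches start 104 and 85 bases before the start site. Over the 300-base entries, 12 of the 20 interferon-induced members with an entry held the motif, against 3.58% of the tested genes with an entry and 3.99% of all genes of the table. Among inflammatory members it was in 2 of 23 and among macrophage members in 2 of 18. The 12 interferon-induced members with the motif had a median difference of -0.17, and 9 of them were lower. The 8 members with an entry and no match had a median of -0.24, and 8 of them were lower. So members with and without a match were lower alike in most cases; the difference between them was not tested.

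Macrophage genes were lower in 25 of 28 tested members with a median of -0.14, where 49.3% of all genes were lower. At an unadjusted p under 0.05, 8 were lower and 0 higher, where all genes gave 2.99% and 2.60%. None passed the adjusted test. The macrophage list too was chosen with earlier results of these arrays known, so its direction is not independent evidence. In such mixed cultures, fewer macrophages and less RNA of these genes per macrophage cannot be told apart. Some members barely differed: Lyz2 by 0.03, Csf1r by 0.01, Adgre1, an adhesion receptor gene of macrophages, by -0.04 and Cd68 by -0.07. They were picked by name and not by p, and 25 of the 28 members were lower. The summed level of the 29 markers on the array was 13.21 and 13.18 without and with thyroxine in female cells at 3 days, 14.52 and 14.51 in male cells at 3 days, 14.73 and 14.69 in female cells at 7 days, and 14.96 and 14.69 in male cells at 7 days. The sums with and without thyroxine were thus farthest apart in male cells at 7 days and nearly equal in the other pairs. Sums, here and below, are the log2 of added unlogged levels, in which the brightest genes weigh most. The mean level of the 29 was lower with thyroxine in each pair. It went from 7.19 to 7.08 and from 8.36 to 8.24 in female and male cells at 3 days. At 7 days it went from 8.64 to 8.53 and from 8.78 to 8.36.

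The members that were lowest were Ms4a6b (-0.86) and Cd200r4 (-0.56), described above, and Ms4a7 (-0.42), Cx3cr1, the fractalkine receptor (-0.32), Mrc1, the mannose receptor (-0.26), and Siglec1, a sialic acid receptor (-0.25), with adjusted p of 0.841 for the last 4. Mrc1 went from 7.60 to 7.63 and from 9.69 to 9.48 in female cells and from 8.87 to 8.65 and from 9.19 to 8.55 in male cells. By pair, 18 and 16 of the 28 were lower at 3 days in female and male cells, and 21 and 28 at 7 days, with medians of -0.06, -0.03, -0.08 and -0.41. Without the male culture 21 of the 28 were lower (median -0.10), and without its 7-day pair alone 22 were lower (median -0.09). Leaving out the female pair at 7 days gave 27 lower with a median of -0.25. Beside the lower inflammatory and interferon-induced genes stands the same pair, male cells at 7 days, in which 28 of 28 macrophage genes were lower. The part of the macrophages in those differences was not tested.

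**Figure D3:**
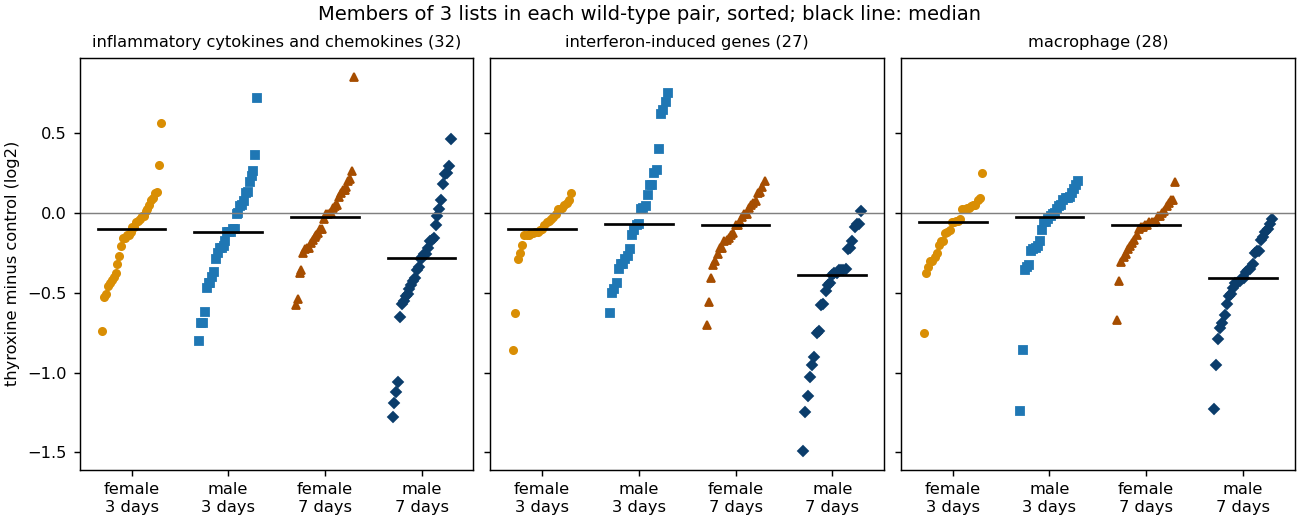
Thyroxine minus control (log2) of each tested member of 3 gene lists (32, 27 and 28 genes), sorted within each of the 4 wild-type pairs; the black line is the median of the pair. In male cells at 7 days the medians are -0.29, -0.39 and -0.41, and 28 of 28 macrophage genes lie below 0, while the other 3 pairs have medians between -0.12 and -0.02.

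Signalling pathways of the suture showed no common direction. Of 30 tested WNT genes, 16 were higher and 14 lower with a median of 0.02, and at an unadjusted p under 0.05 there were 4 higher and 3 lower, where all genes gave 2.60% and 2.99%. Secreted antagonists were among the higher: Sfrp4 by 0.51 ± 0.15 (adjusted p = 0.836), Wif1 by 0.31 ± 0.12 and Notum by 0.32 ± 0.13. Sfrp4 went from 4.10 to 4.98 and from 4.96 to 5.73 in female cells, and was higher by 0.28 and 0.12 in male cells. Nkd1, an intracellular antagonist that the pathway itself induces, was lower by 0.51 ± 0.13 (adjusted p = 0.646), from 5.14 to 4.29 and from 5.32 to 4.70 in female cells, and with differences of -0.38 and -0.19 in male cells. For both genes the difference was larger in female than in male cells at each day. The agonist Rspo2 (-0.37 ± 0.11) and the receptor Fzd1 (-0.28 ± 0.09) were lower, most in male cells at 7 days (-0.81 and -0.60).

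Among genes of natriuretic peptide and FGF signalling, 9 of 18 were higher and 9 lower. Besides Npr3, Nppb, which encodes B-type natriuretic peptide, was higher by 0.87 and 0.86 at 7 days and differed by -0.33 and 0.07 at 3 days, and Fgf18, a growth factor of skull bones, was lower by 0.30 ± 0.14. In the insulin-like growth factor list, 11 of 17 members were higher with a median of 0.01; Htra1 belongs to it as a protease of binding proteins, Igfbp2 was lower by 0.22 ± 0.10, and Pappa2, another such protease, differed by 0.00, 0.08, 0.81 and 0.13. Of 30 BMP and TGF-beta genes, 13 were higher and 17 lower with a median of -0.02. Osteoblast genes were 6 higher and 6 lower among the 12 of 20 that passed the filter. Alpl, the alkaline phosphatase of bone-forming cells, differed by -0.18 ± 0.12, and Tnfsf11, the RANK ligand that drives osteoclast formation, was lower by 0.36 ± 0.16 in 4 of 4 pairs (adjusted p = 0.887). Suture mesenchyme genes had a median of 0.04 over 18 members, with Twist1 at -0.09 ± 0.16 and Msx2 at 0.18 ± 0.11.

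Extracellular matrix genes showed no common direction over the pairs. Over both days 21 of 36 were lower and 14 higher with a median of -0.02, and at an unadjusted p under 0.05 there were 7 lower and 1 higher, where all genes gave 2.99% and 2.60%. At 3 days 27 of the 36 were lower in female and 23 in male cells, with medians of -0.07 and -0.05. At 7 days 7 were lower in female and 29 in male cells, with medians of 0.11 and -0.17. Without the male culture 11 of the 36 were lower with a median of 0.03, and without the female culture 26 were lower with a median of -0.12. Col6a2, a chain of collagen VI, differed by -0.17 and 0.21 in female cells and by -0.49 and -0.98 in male cells. The small proteoglycan Lum followed it, with -0.10 and 0.04 in female cells and -0.39 and -0.74 in male cells. Fbln5, of elastic fibres, had even differences, -0.13, -0.19, -0.16 and -0.18 (mean -0.17 ± 0.07, adjusted p = 0.842). The hyaluronan synthase Has2 (-0.21) and the proteoglycan Aspn (-0.25) were lower in 4 of 4 pairs. In the list of matrix proteases and their inhibitors, 9 of 24 were higher and 14 lower; Htra1 was the member that passed, and Plat, the tissue plasminogen activator, was lower by 0.33 ± 0.09 in 4 of 4 pairs (adjusted p = 0.737).

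Cell cycle genes were higher in 19 of 30 members with a median of 0.06, and the excess lay in male cells at 7 days, where 3 of 30 were lower and the median was 0.22. In the other pairs the medians lay between -0.02 and 0.01. Leaving out male cells at 7 days gave 15 of 30 higher with a median of 0.01. Ccne1, the cyclin of the start of DNA synthesis, was higher by 0.28 ± 0.10, and the proliferation marker Mki67 by 0.18 ± 0.10, with 0.59 in female cells at 7 days. Lists of actomyosin, adipocyte, cartilage, cholesterol and fatty acid synthesis, protein stress and oxidative metabolism genes had medians between -0.05 and 0.06. Marker sums of other cell types, which cannot be ranked against each other, were set side by side only between the media. The summed control levels lay between 7.41 and 7.59 for endothelial cells, 6.95 and 7.04 for lymphocytes and granulocytes, and 7.17 and 7.41 for epithelial cells. Those of skeletal muscle lay between 8.20 and 8.81, of neural and Schwann cells between 8.33 and 9.25 and of osteoclasts between 9.07 and 9.40. With thyroxine the ranges were 7.54 to 7.63, 6.93 to 7.02, 7.16 to 7.38, 8.05 to 8.81, 8.55 to 9.43 and 9.10 to 9.32 in the same order. Suture mesenchyme markers summed to 12.38 to 13.04 without and 12.38 to 13.05 with it.

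**Figure D4:**
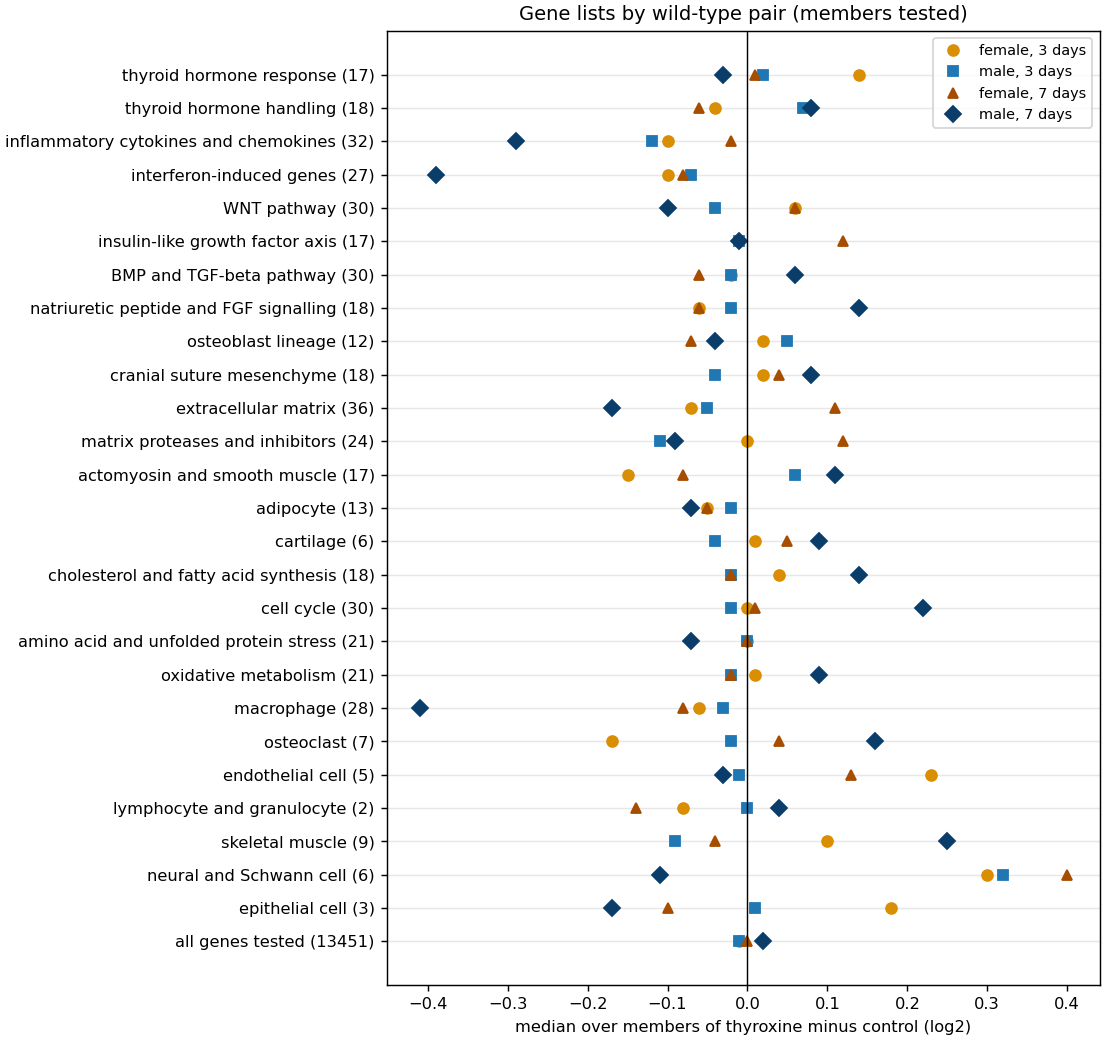
Median over the tested members of thyroxine minus control (log2) for 26 gene lists and for all 13451 genes, 1 symbol per wild-type pair; the number of members tested is in parentheses. The pairs disagree in sign for most lists; the inflammatory, interferon-induced, macrophage and adipocyte lists lie below 0 in 4 of 4 pairs, the first 3 of them by -0.29 to -0.41 in male cells at 7 days.

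By day, no gene passed the test. At 3 days the smallest adjusted p was 0.329, that of the small nucleolar RNA Snord71, with 707 genes, or 5.26%, at an unadjusted p under 0.05, and at 7 days it was 0.228, with 677 genes, or 5.03%. At 3 days the genes named on the lower side included Il6 (-0.66 ± 0.14, SE, n = 2 pairs), Cd200r4 (-0.81 ± 0.17) and Oser1 (-0.74 ± 0.17). On the higher side were Cplx1, of the machinery of vesicle release (0.80 ± 0.17), Casp9, the initiator caspase of the mitochondrial death pathway (0.61 ± 0.14), and Erbb3, a receptor of neuregulins (0.74 ± 0.18), with adjusted p from 0.703 to 0.784. At 7 days Htra1 (0.81 ± 0.13), Klf9 (0.68 ± 0.12), Mxra7 (0.67 ± 0.11), Heg1 (0.67 ± 0.12), Npr3 (0.64 ± 0.12) and Il6 (-0.82 ± 0.14) had the smallest p, with adjusted p from 0.228 to 0.266. Further down on the lower side stood Rtl3 (-0.69), Usp18 (-0.73) and Siglec1 (-0.56), with adjusted p from 0.677 to 0.707.

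The difference between the days was tested directly and no gene passed (smallest adjusted p 0.995), with 613 genes, or 4.56%, at an unadjusted p under 0.05. Htra1, Klf9, Npr3, Mxra7 and Heg1 had larger differences at 7 than at 3 days, by 0.28, 0.30, 0.24, 0.43 and 0.42, and none of these passed. Pdgfra, the receptor of platelet-derived growth factor on mesenchymal cells, differed by 0.06 and -0.21 at 3 days and by 0.50 and 0.52 at 7 days. Ptprz1, a receptor phosphatase, went from 0.51 and 0.31 below control at 3 days to 0.91 and 0.53 above it at 7 days, and Eno3, the muscle enolase, from -0.23 and -0.26 to 0.37 and 0.96. In the other direction, Cst7, a protease inhibitor of immune cells, differed by 0.63 and 0.25 at 3 days and by -0.41 and -1.15 at 7 days. The interferon-induced Oas2 differed by 0.02 and 0.62 and then by -0.70 and -0.38. Of the 27 interferon-induced genes, 24 had a lower difference at 7 than at 3 days, with a median change of -0.23. Of all 13451 genes 6239 did, with a median change of 0.01. An unadjusted p under 0.05 was found for 3 of the 27, against 2.08% of all genes in that direction. Of the 28 macrophage genes 22 had a lower difference at 7 days, with a median change of -0.14.

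Pair differences hardly resembled each other across genes. Over the 13451 genes, which are not independent replicates, the 2 pairs at 3 days correlated at 0.138 and the 2 pairs at 7 days at 0.011. The 2 pairs of the female culture correlated at 0.012 and those of the male culture at 0.082. Each pair shares its culture or its day, but no array, with these others.

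The effect was also compared between the cultures, and no gene passed (smallest adjusted p 0.998), with 518 genes, or 3.85%, at an unadjusted p under 0.05. Sex and culture cannot be told apart here. The smallest p belonged to Ifnl3, which encodes an interferon lambda: its differences were 0.46 and 0.38 in female cells and -0.89 and -0.57 in male cells (male minus female -1.15 ± 0.21). Ifit1 (-1.05 ± 0.23) and Xaf1 (-0.86 ± 0.21), both induced by interferon, and Dcn, the matrix proteoglycan decorin (-0.81 ± 0.18), were also lower in the male response. On the other side stood Gabrb1, a subunit of the GABA receptor (0.80 ± 0.20), and Lbr, the lamin B receptor (0.73 ± 0.19). Of the 27 interferon-induced genes, 8 had an unadjusted p under 0.05 for this difference and these 8 were lower in the male response, against 2.06% of all genes. Over both days the 27 together were evenly split, 14 below 0 and 13 above 0, with a median male minus female difference of -0.01. An unadjusted p under 0.05 with a lower male response was found for 5 of 32 inflammatory and 2 of 28 macrophage genes. It was found as well for 5 of 30 WNT and 5 of 36 extracellular matrix genes, so it was not limited to immune genes. A higher male response at that p was found for 1 WNT and 1 matrix gene, and for 0 inflammatory and 0 macrophage genes.

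The response of the wild-type cells was set beside that of the Twist1+/- cells, which have their own control arrays. Of the 12 named higher genes, 11 were also higher in Twist1+/- cells, where 5366 of all 13451 genes were higher. Of the 12 named lower genes 7 were lower there, or 58.3%, close to the 59.4% of all genes. Over all genes 45.3% had the same sign in both. The 24 genes were chosen for large differences in wild-type cells, and 21 of them had a smaller difference in Twist1+/- cells. Klf9 rose there by 0.58 ± 0.08 (SE, n = 4 pairs, adjusted p = 0.00979) and Heg1 by 0.52 ± 0.09 (adjusted p = 0.0265). Htra1 was higher by 0.47 ± 0.09 (adjusted p = 0.0702) and Stmn2 by 0.65 ± 0.12 (adjusted p = 0.0582), and Il6 was lower by 0.39 ± 0.10 (adjusted p = 0.222), with -0.26, -0.16, -0.49 and -0.66 in the 4 pairs. Ret, even in wild-type cells at 0.52, was at -0.12 in Twist1+/- cells.

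The difference between the genotypes was tested for each gene, and 8 genes, or 0.0595%, passed, none of them among the 24. The smallest adjusted p among the 24 belonged to genes that were lower in wild-type and higher in Twist1+/- cells: Oser1, at -0.60 and 0.32 (difference 0.92 ± 0.17, adjusted p = 0.100), Car6, at -0.51 and 0.34 (0.85 ± 0.17, adjusted p = 0.136), and H2-T23, at -0.49 and 0.30 (0.80 ± 0.17, adjusted p = 0.165). With the mean of its 2 probe sets the difference of Oser1 was 0.27 (adjusted p = 0.723). For Il6 the difference was 0.35 ± 0.14 (adjusted p = 0.483) and for Htra1 -0.19 ± 0.13 (adjusted p = 0.662). The interferon-induced genes were lower in 8 of 27 members in Twist1+/- cells, with a median of 0.12, and the inflammatory genes in 12 of 32, with a median of 0.09. The macrophage genes were lower there in 17 of 28 members, with a median of -0.03. Over all genes 59.4% were lower in Twist1+/- cells, with a median of -0.03. For the genotype difference, 11 of the 27 interferon-induced genes had an unadjusted p under 0.05 with the larger value in Twist1+/- cells, as had 7 of the 32 inflammatory and 5 of the 28 macrophage genes, against 3.72% of all genes. None of these members passed the adjusted test.

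**Figure D5:**
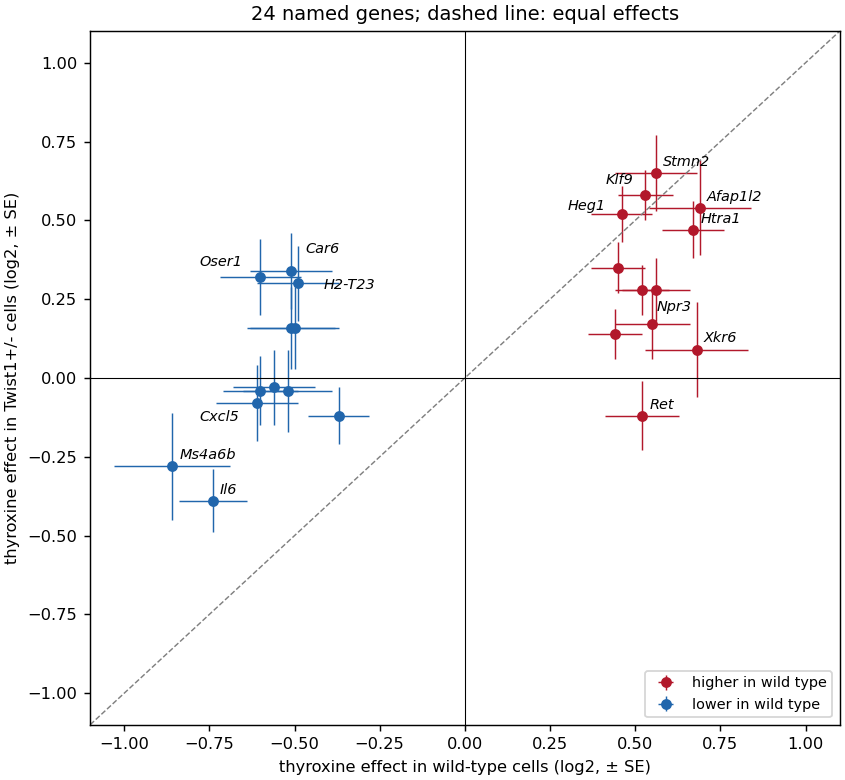
Mean effect of thyroxine (log2, with SE from limma over 4 pairs each) in wild-type cells on the x axis and in Twist1+/- cells on the y axis for the 24 named genes, which were chosen by their wild-type values. Points on the dashed line have equal effects; Klf9 (0.53 and 0.58) and Heg1 lie near it, Ret lies below 0 on the y axis, and Oser1, Car6 and H2-T23 lie at -0.60 to -0.49 on the x axis and at 0.30 to 0.34 on the y axis.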

How the data were processed

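RNA of the 16 samples was measured on Affymetrix arrays, 1 per sample. The deposited values were log2 expression levels of probe sets. Per the submitters' processing notes, the authors used RMA and Affymetrix Expression Console. The sources used here name no genome build. The values ran from 0.57 to 14.05, with array medians between 3.73 and 3.86. RMA makes the distributions of the arrays alike, so a shift common to all genes could not be seen.

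Of 41345 probe sets, 23521 carried 1 symbol, 1814 several and 16010 none. Only those with 1 symbol were used, and the brightest over all arrays stood for its gene. Genes with a mean over all 16 arrays under 3.905, the 40th percentile, were left out (8729 of 22180), which left 13451. limma 3.58.1 in R 4.3.3 fitted all 16 arrays with a block for each pair, a trend of the spread with level and moderated two-sided tests. p-values were adjusted by Benjamini-Hochberg over all tested genes. The method was tested on simulated data made from these arrays.

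The pairing came from the labels: control and treated wells of a genotype, sex and time were on 1 plate. The male minus female differences of the control arrays and of the treated arrays correlated at 0.771 at 3 days and 0.721 at 7 days across genes. The cultures thus differed alike in both media, which cannot show that the wells shared a plate.

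For the effect over both days, up to 12 genes per direction were named, those past the threshold and then those with the smallest p, all with 1 sign in 4 of 4 pairs. For each day, for the day difference and for the culture difference up to 5 per direction were named, and up to 6 members per gene list by smallest p. Hormone-handling genes and Twist1 were named in any case, and predicted or uncharacterised genes were not named. Lyz2, Csf1r, Adgre1, Cd68 and the label checks are named outside this rule, as are Snord71 and the genes of single alternatives. The members, the 26 gene lists and the tests were chosen with earlier results of these data known. The alternatives tried were the filter, the trend, the block, the probe set rule, the centring, a repeated quantile normalization, array weights, robust shrinkage, the arrays in the fit, and leaving out each pair or culture.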

Additional observations from a re-analysis of the deposited data

Results flagged for a closer look

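Over the 4 wild-type pairs, 86 genes and 26 list medians were searched for a pair that stood apart from the other three, and 7 genes and 5 lists had one. Chance gives about 1 in 20 groups. Male cells at 7 days stood apart for Ndrg1 (-0.79), Oasl2 (-0.95) and Has2 (-0.42). Male cells at 3 days stood apart for Rab6b (-0.90) and Xkr6 (1.00). Female cells at 7 days stood apart for Pappa2 (0.81), and for Car6, where they had the smallest difference (-0.28). Among the lists, the medians of male cells at 7 days stood apart for the interferon-induced genes (-0.39), the macrophage genes (-0.41), the cell cycle genes (0.22) and the genes of amino acid and unfolded protein stress (-0.07). The median of female cells at 7 days stood apart for the insulin-like growth factor axis (0.12). No difference between days, cultures or genotypes passed the test for a gene named here.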

How the results depend on the processing

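The 24 named genes kept their sign under every alternative run. They were chosen with 1 sign in 4 of 4 pairs, so leaving out a pair or a culture could not change it. The number of genes that passed did not hold. Over both days it was 2, and it was 0 without the trend, with no filter, with the quantile normalization repeated, without the male culture, without the female culture and without the Twist1+/- pairs at 7 days, 1 with wild-type arrays alone and 4 with array weights. With no replicate block for the pairing it was 0. Leaving out 1 pair gave 0 to 5, with 5 without the female pair at 7 days. At 3 days leaving out 1 pair gave 0 to 1. At 7 days it gave 0 to 12, the 12 without the female pair at 7 days, and 3 passed without the female culture. For the male minus female difference, 1 gene (Snord13) passed with wild-type arrays alone and 1 without the Twist1+/- pairs at 7 days. For the genotype difference, 8 passed, against 5 with the mean of probe sets, 2 with robust shrinkage, 15 without the female culture and 0 without the trend, with no replicate block, without the male culture or without the Twist1+/- pairs at 7 days. Leaving out 1 pair gave 0 to 26 there. The cause was not tested for any of these.

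List medians moved by more than their SD over the 4 pairs for thyroid hormone response (0.028 to 0.128 when 1 pair was left out), the WNT pathway (-0.07 without the female culture), adipocytes (-0.08 without the female culture, -0.102 to 0.052 without 1 pair) and, without the male culture, osteoclasts (-0.135), endothelial cells (0.265) and epithelial cells (0.13). Within that SD, leaving out 1 pair gave -0.245 to -0.091 for macrophage, -0.216 to -0.066 for inflammatory, -0.248 to -0.132 for interferon-induced and 0.022 to 0.275 for neural genes. Without the male and without the female culture, matrix genes were at 0.032 and -0.12 and actomyosin genes at -0.08 and 0.09. The alternative without the female culture was chosen for the lists after seeing the data.

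Effects of 9 genes outside the 24 changed sign. Without the male culture Thra was at -0.17, Dio2 at -0.05, Dio3 at 0.47, Bcl3 at 0.05, Col6a2 at 0.02 and Msx2 at -0.04. Without the female culture Twist1 was at 0.13, and with the mean of probe sets Dio2 was at -0.07. Leaving out 1 pair gave -0.10 to 0.15 for Thra, -0.34 to 0.30 for Dio3, -0.21 to 0.02 for Twist1, -0.01 to 0.03 for Csf1r and -0.08 to 0.01 for Adgre1.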
